A study of Homo sapiens with 12 samples.

Results

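The subject is the departure from additivity when KP4 cells received metformin and FK866 together, measured gene by gene in RNA-seq data. For each gene, the mean log2(normalized count + 1) of the combination, minus that of metformin alone, minus that of FK866 alone, plus that of the vehicle, gave the departure. A departure above 0 means that the combination held more RNA of that gene than the product of the 2 single-drug folds predicts, and a departure below 0 means that it held less. The same number is the log2 change with FK866 under metformin minus the log2 change with FK866 without metformin. Kept were genes whose normalized counts averaged 10 or more over the 12 libraries, which left 15376 of 36601 genes. KP4 is an established cell line from a human pancreatic ductal carcinoma. The cells received the vehicle DMSO, 10 mM metformin (Met), 5 nM FK866 (FK) or both drugs (Met+FK) for 24 h, with 3 libraries per treatment, and nothing else in the labels separates the groups. The data describe 1 cell line in culture at 1 dose of each drug and 1 time. The labels do not say that the 3 libraries of a treatment came from separate cultures, so p-values measure the spread between these libraries, which may be technical.

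Metformin inhibits mitochondrial complex I, the entry to the respiratory chain, where NADH is oxidized back to NAD+. FK866 inhibits NAMPT, the enzyme that makes the precursor nicotinamide mononucleotide from nicotinamide in the NAD salvage pathway. Cells whose respiration is blocked depend on glycolysis, which itself reduces NAD+ to NADH, so both drugs act on the same cofactor, the first on its oxidation and the second on its supply. Blocked respiration and amino acid shortage are known to start the integrated stress response, in which the transcription factor ATF4 raises genes of amino acid supply and of stress signalling.

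The libraries held between 30667735 and 41052203 counted read pairs. Of the ductal and epithelial markers, KRT18 (median 11764 normalized counts), SOX9 (4325) and KRT8 (2667) were abundant. KRT19 (33.4) and CDH1 (40.9) were near the floor of the genes kept, and EPCAM (9.30) fell under it and was not tested. Of the mesenchymal markers, the intermediate filament gene VIM had a median of 99676, CDH2 3243, ZEB1 921 and FN1 384, whereas SNAI2 was at 0 in all 12 libraries. Of the endocrine and acinar markers, INS, SST, CPA1 and AMY2A were at 0 in all 12 libraries, GCG, CHGA and PRSS1 did not exceed 2.30, and CEL ran from 7.41 to 35.5. Of the immune markers, CD3E and LYZ did not exceed 3.14, whereas PTPRC ran from 101 to 304 and CD68, which many cell types express in lysosomes, from 721 to 1010, with departures of -0.27 ± 0.28 for PTPRC and 0.44 ± 0.12 for CD68 (adjusted p = 0.51 and 0.11, limma). Their part in the results was not tested. The values are totals per library, so fewer cells of a type and less RNA per cell cannot be told apart.

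How many single genes departed from additivity beyond the spread between libraries depended on the fit. At an adjusted p under 0.05 (limma with Benjamini-Hochberg adjustment over all genes), 1 gene lay above additivity (0.0065% of those tested) and 8 lay below (0.052%). DESeq2, run on the recovered read pairs, called 263 above and 432 below, among them 49 of the 83 genes described below that limma did not call. At an unadjusted p under 0.05, 2424 genes lay above (15.8%) and 2271 below (14.8%). Most departures were small, since 89.4% of all genes lay within 1.5-fold of the product of the single-drug folds, and the median departure was 0.0162 on the log2 scale with a median standard error of 0.168. Beyond 1.5-fold and at an unadjusted p under 0.05 there were 181 genes above and 830 below. The split between the directions depended on the scaling of the libraries, because 51.6% of the genes at an unadjusted p under 0.05 lay above with the deposited size factors, against 34.6% with all libraries scaled to the same total (1545 above, 2926 below).

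**Figure D1:**
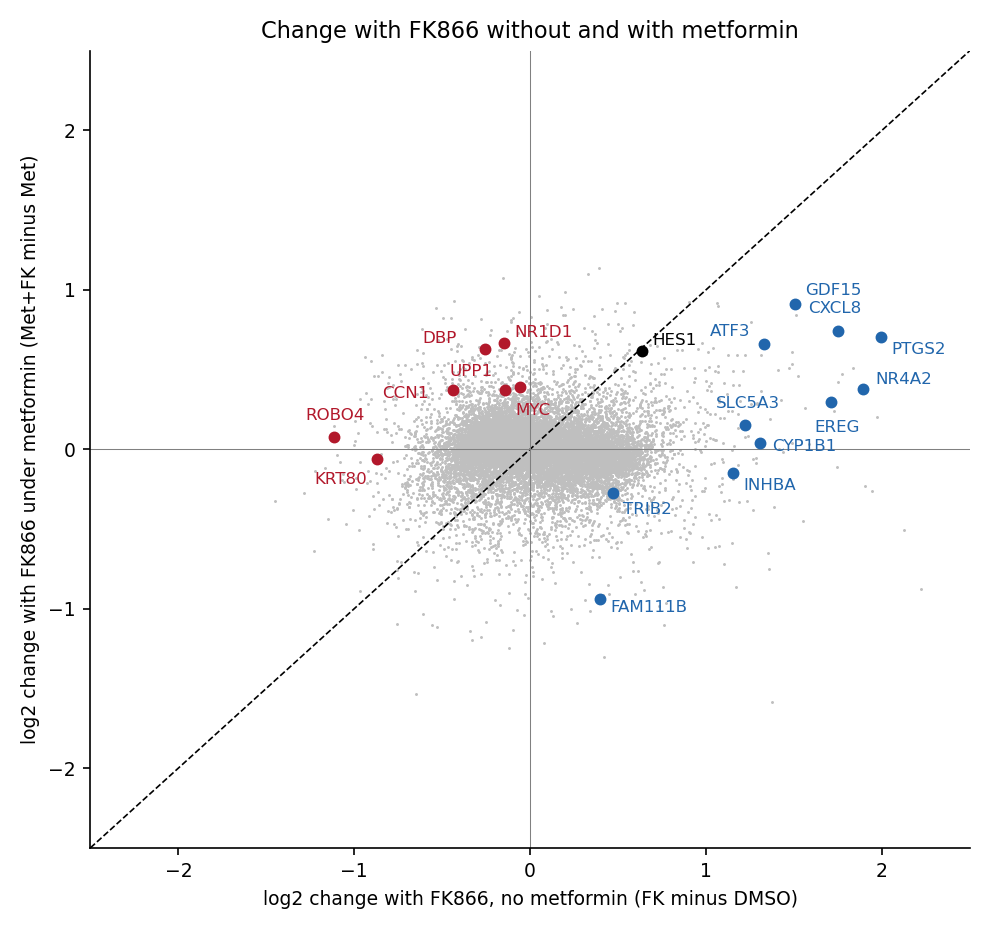
Each grey point is 1 of the 15376 genes, with its log2 change with FK866 alone (FK minus DMSO) on the x axis and its log2 change with FK866 under metformin (Met+FK minus Met) on the y axis. Genes on the dashed diagonal are additive on the log2 scale, genes under it (blue names) lie below additivity and genes over it (red names) above, and HES1 (black) lies on it with a departure of -0.02.

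GC content moved with the departure. Across genes, which are not independent replicates, the departure correlated with GC content (Pearson r = 0.622), and the median departure rose from -0.46 in the decile of genes with the lowest GC content to 0.31 in the decile with the highest. The genes below at an unadjusted p under 0.05 had a median GC content of 40.3% and those above 57.9%, against 48.5% for all genes. The change with FK866 alone correlated with GC content at r = -0.604 and the change with FK866 under metformin at r = 0.203. The slope of a library's values on GC content was lowest in FK replicate 2 (-0.245 log2 units per 10 percentage points) and highest in DMSO replicate 1 (0.196). After each library was freed of a smooth dependence on GC content and on transcript length, r was 0.0138, and 45 genes lay above (0.294% of 15324 genes) and 47 below (0.307%) at an adjusted p under 0.05. At an unadjusted p under 0.05 there were then 1819 above (11.9%) and 902 below (5.89%). The part of GC content in the departures was not tested, and values with the trend removed are therefore given beside each group of genes. The removal also takes away any drug effect that follows GC content or length, so it is not a purely technical correction.

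**Figure D2:**
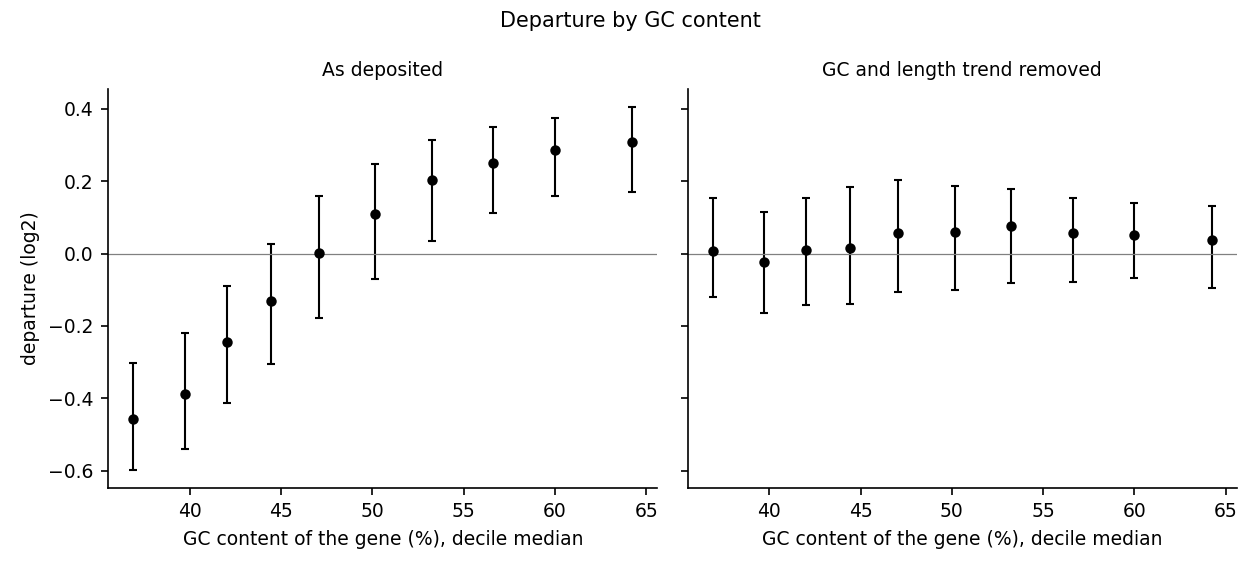
Median departure (points) and the interquartile range of the genes (bars) in 10 classes of genes with rising GC content, from the deposited values (left) and with the GC and length trend removed from each library (right). The medians run from -0.46 to 0.31 on the left and from -0.02 to 0.08 on the right.

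The gene with the smallest p-value was EREG, which encodes epiregulin, a ligand of the EGF receptor (hg38, chr4:74365144-74388749). Its normalized counts were 3136, 3071 and 2991 in DMSO, 2914, 3045 and 2532 with Met, 9133, 13002 and 8508 with FK and 3766, 3489.9 and 3151 with Met+FK. FK866 alone raised EREG 3.27-fold, so that the 3 FK libraries lay above the 9 others, while the Met+FK libraries sat just above the highest DMSO and Met library. The departure was -1.42 ± 0.18 (log2 ± SE, adjusted p = 0.0174, limma), which puts the combination 2.67-fold under the product of the single-drug folds. With the GC and length trend removed it was -0.91 (adjusted p = 0.00237, limma).

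PTGS2 encodes cyclooxygenase-2, the inducible enzyme of prostaglandin synthesis (chr1:186671790-186680423). Its normalized counts were 344, 343 and 371 in DMSO, 945, 1019.5 and 794 with Met, 1269, 1842 and 1199.5 with FK and 1569, 1683 and 1257 with Met+FK. PTGS2 rose with either drug alone, and its Met+FK libraries overlapped the FK libraries. A product of folds of 3655 was predicted against an observed geometric mean of 1491, a departure of -1.29 ± 0.21 (adjusted p = 0.0407, limma; -0.81 and 0.017 with the trend removed).

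CYP1B1 and CYP1A1, cytochrome P450 enzymes known as targets of the aryl hydrocarbon receptor, had log2 changes with FK866 of 1.31 and 1.18 without metformin and of 0.04 and 0.22 with it. CYP1B1 (chr2:38066972-38109902) had normalized counts of 253, 319 and 283 in DMSO, 477, 476 and 445 with Met, 575, 889 and 681 with FK and 467, 537 and 437 with Met+FK. Its Met+FK libraries overlapped the Met libraries and lay under all FK libraries (departure -1.27 ± 0.20, adjusted p = 0.0407, limma). CYP1A1 had 367, 265 and 322 in DMSO, 206, 238 and 242 with Met, 646, 734 and 774 with FK and 212, 314 and 285 with Met+FK. It rose with FK866 alone (adjusted p = 0.000593, limma), and in the combination its libraries overlapped those of DMSO and Met. Its departure of -0.96 ± 0.21 did not pass the adjusted threshold on the deposited values (adjusted p = 0.101, limma) but did with the trend removed (-1.10, adjusted p = 0.0116) and on the count scale described below.

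The other calls below additivity were a transporter, a kinase-like protein, a membrane protein and a low transcript, beside ATF3. SLC5A3, the sodium/myo-inositol cotransporter (chr21:34073577-34106260), had normalized counts of 3453, 3627 and 3108 in DMSO, 4851, 5111 and 4497 with Met, 6788, 9755 and 7460.2 with FK and 5606, 5547 and 4941 with Met+FK, with Met+FK libraries that overlapped the Met libraries. TRIB2, a pseudokinase of the tribbles family (chr2:12716888-12742734), had 604, 568 and 569.8 in DMSO, 563, 588 and 609.7 with Met, 789, 833 and 793 with FK and 457, 519 and 482 with Met+FK. The combination was the lowest group for TRIB2, under every library of the other treatments, although FK866 alone raised it. PTCHD1, a membrane protein with a patched domain (chrX:23334848-23404374), had 185, 151 and 166 in DMSO, 178, 167 and 150.2 with Met, 351, 421 and 369.6 with FK and 198, 179 and 168 with Met+FK, and its Met+FK libraries overlapped those of DMSO and Met. AC116158.3 (chr15:38493307-38499985), a low transcript, had 11.5, 12.8 and 17.4 in DMSO, 37.6, 43.5 and 37.5 with Met, 43.4, 36.3 and 31 with FK and 31.4, 19.8 and 24.4 with Met+FK. The Met+FK libraries of AC116158.3 lay above DMSO and under the Met libraries, although each drug alone gave a higher level than the vehicle. The departures were -1.07 ± 0.16 for SLC5A3, -0.74 ± 0.12 for TRIB2, -1.05 ± 0.17 for PTCHD1 and -2.004 ± 0.33 for AC116158.3, all with an adjusted p of 0.0407 (limma). Once the trend was removed, the first 2 and the last kept an adjusted p under 0.05 (-0.57, -0.80 and -1.66), while PTCHD1 had -0.64 (adjusted p = 0.0999, limma).

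The gene above additivity was CCN1, also called CYR61, a matricellular protein and a textbook target of the YAP coactivator (chr1:85580760-85583950). Its normalized counts were 6835, 5844 and 5725 in DMSO, 4859, 5075 and 5282 with Met, 5218, 4032 and 4364 with FK and 6171, 6758 and 6787 with Met+FK. Each drug alone lowered the mean, with no Met or FK library reaching the lowest DMSO library, whereas the Met+FK libraries lay inside the range of the DMSO libraries. The departure was 0.81 ± 0.13 (adjusted p = 0.0407, limma), and 0.72 (adjusted p = 0.00258) with the trend removed.

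FK replicate 2 was the highest FK library of EREG, PTGS2, CYP1B1, SLC5A3, TRIB2, PTCHD1 and ATF3 and the lowest of CCN1. The 9 genes had GC contents between 36.1% and 50.7%. The 9 calls depended on single libraries. No gene stayed called by limma without DMSO replicate 1 or 3, Met replicate 1 or 2, or Met+FK replicate 2 or 3, although between 1444 and 2339 genes above and between 1344 and 2126 below kept an unadjusted p under 0.05 there. Without DMSO replicate 2, FK replicate 3 or Met replicate 3, only EREG was called. EREG, PTGS2, CYP1B1 and SLC5A3 stayed called without FK replicate 2, the library with the lowest GC slope, and EREG, SLC5A3, PTCHD1 and AC116158.3 without Met+FK replicate 1. All 9 stayed called without FK replicate 1, where 980 genes above and 865 below were called. Their departures kept their sign in the 12 fits, for example -1.54 to -1.23 for EREG, -1.41 to -1.10 for PTGS2, -1.41 to -1.10 for CYP1B1, -1.18 to -0.92 for SLC5A3, -0.79 to -0.70 for TRIB2, -1.12 to -0.97 for PTCHD1, -0.73 to -0.62 for ATF3, -2.17 to -1.85 for AC116158.3 and 0.73 to 0.92 for CCN1. These fits share all but 1 library with the fit that chose the genes, so the kept sign is no separate support.

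**Figure D3:**
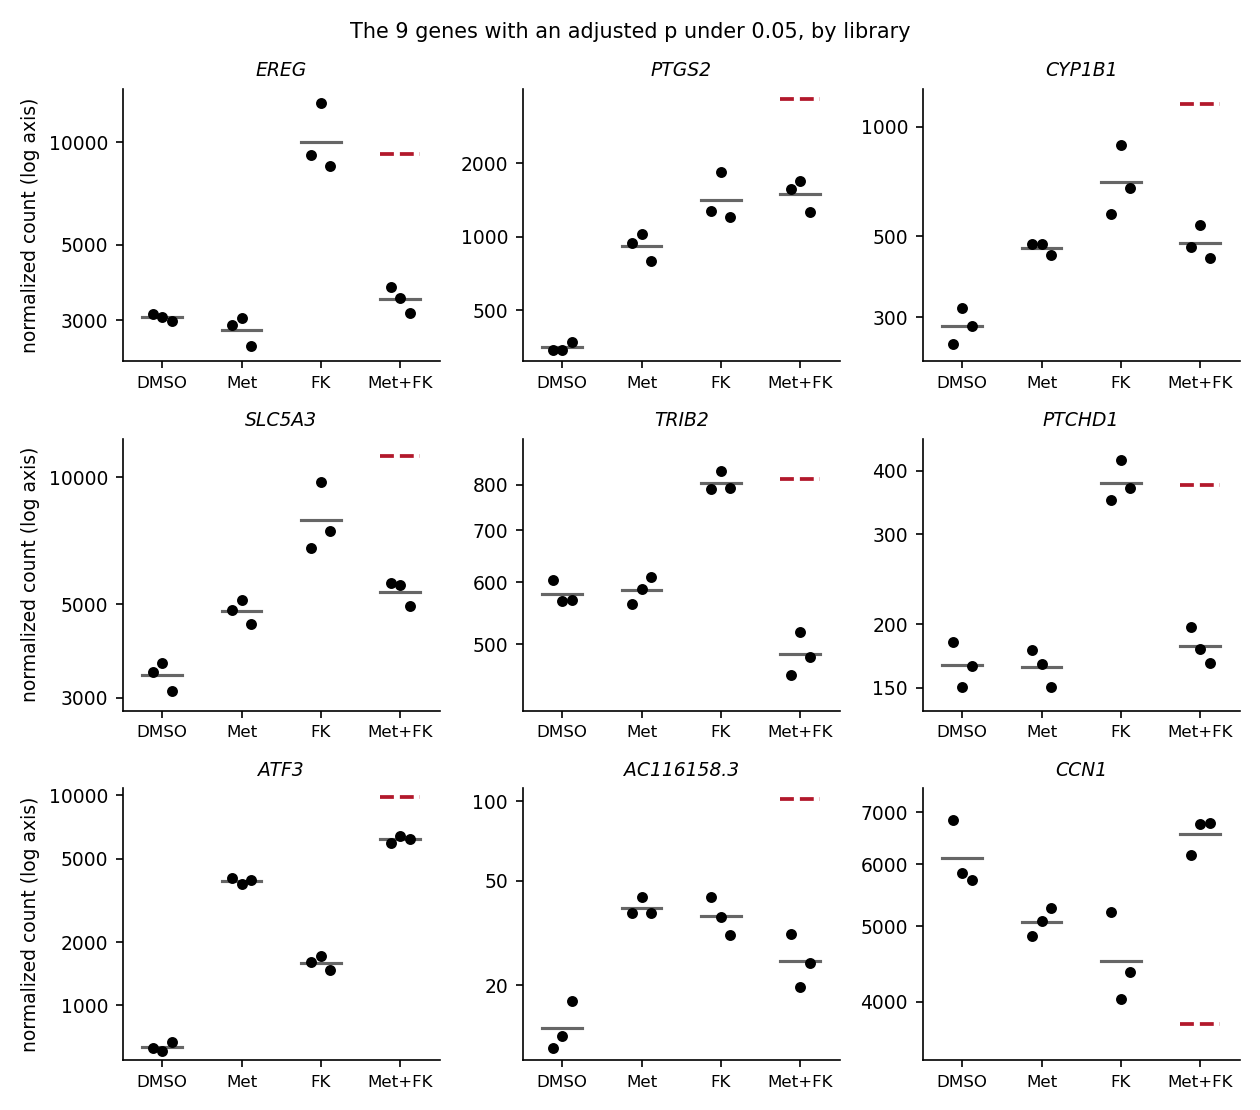
Normalized counts (log axis) of the 9 genes with an adjusted p under 0.05 in each library (points), with the group's geometric mean (grey line) and the level that the product of the single-drug folds predicts for Met+FK (red dashes). The Met+FK points lie under the dashes in 8 genes and over them in CCN1.

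ATF3, an ATF4-dependent stress transcription factor (chr1:212565333-212620777), showed that the sign of a departure can depend on the scale. Its normalized counts were 625, 609.9 and 671 in DMSO, 4030.2, 3792 and 3939.5 with Met, 1611, 1719 and 1479.6 with FK and 5911, 6441 and 6230.3 with Met+FK, and no groups overlapped. The combination was the highest group, at an observed geometric mean of 6190.3. This lay under the product of the single-drug folds (9869.5; departure -0.67 ± 0.11, adjusted p = 0.0407, limma) and over the sum of the single-drug count changes (4888). When additivity was defined by that sum, the departure divided by the gene's mean was 0.42 (adjusted p = 0.05002, limma, just over the threshold). GDF15, a secreted stress cytokine, had normalized counts of 505, 478 and 524 in DMSO, 1645, 1623 and 1989 with Met, 1403, 1443 and 1433 with FK and 2999, 3447 and 3433 with Met+FK, also without overlap between Met+FK and the other groups. Its Met+FK geometric mean of 3286 stood between the product (4951) and the sum (2676), with a log2 departure of -0.59 ± 0.13 (adjusted p = 0.0976, limma) and a count-scale departure of 0.35 (adjusted p = 0.105). ATF3 and GDF15 were the 2 genes below additivity on the log2 scale and above it on the count scale at an unadjusted p under 0.05, and 0 genes (limma) had the opposite pair of signs. On both scales 2342 genes lay above and 1905 below.

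**Figure D4:**
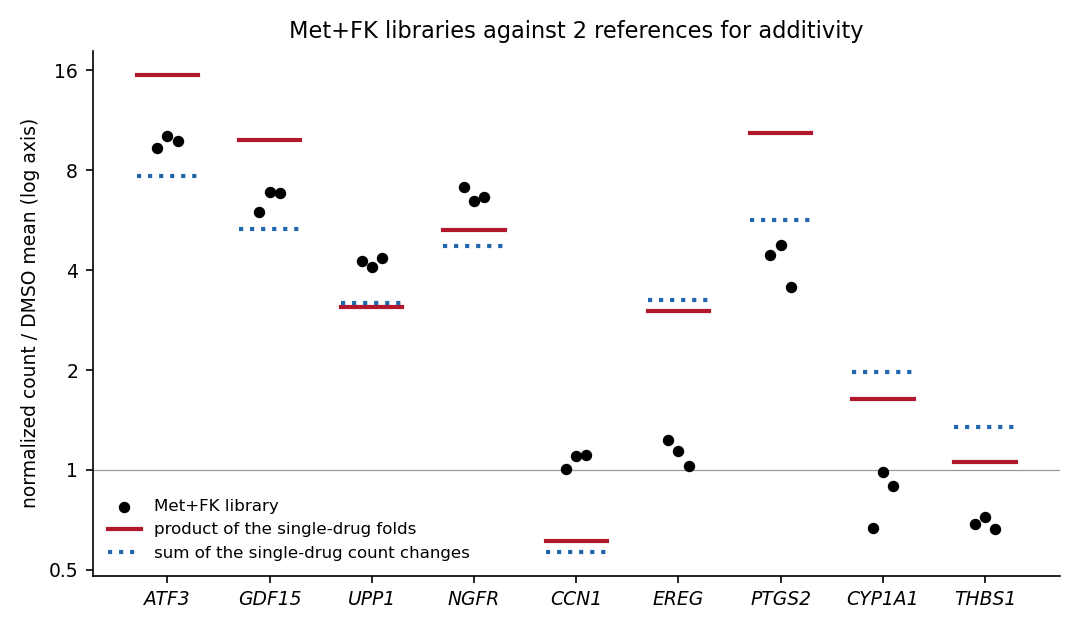
Met+FK libraries (points) of 9 genes as a fold of the DMSO mean (log axis), with the product of the single-drug folds (red lines) and the sum of the single-drug count changes (blue dotted lines). ATF3 and GDF15 lie between the 2 references, UPP1, NGFR and CCN1 lie over both, and EREG, PTGS2, CYP1A1 and THBS1 lie under both.

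On the count scale, 2 genes lay above additivity at an adjusted p under 0.05 (0.013% of those tested) and 5 below (0.0325%). UPP1 encodes uridine phosphorylase, which splits uridine into uracil and ribose 1-phosphate. Its normalized counts were 23641, 23395 and 21081 in DMSO, 74584, 70847 and 74365 with Met, 23341, 20895 and 21232 with FK and 96755, 93124 and 98498 with Met+FK. FK866 without metformin left the UPP1 libraries inside the DMSO range apart from 1 lower library, while under metformin all 3 lay above all Met libraries (log2 change 0.39, adjusted p = 0.028, limma). The sum of the single-drug changes predicted 72382, against an observed 96099.6 (departure divided by the mean 0.44, adjusted p = 0.014, limma). Its log2 departure was 0.45 ± 0.09, and 0.27 with the trend removed. NGFR, the low-affinity neurotrophin receptor, had 145, 141 and 154 in DMSO, 685, 619 and 716 with Met, 161, 175 and 174 with FK and 1044, 952 and 977 with Met+FK. The Met+FK libraries of NGFR stood above all others, with a count-scale departure of 0.59 (adjusted p = 0.0473, limma) and a log2 departure of 0.35 ± 0.13 (0.09 with the trend removed).

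Of the 5 genes below on the count scale, PTCHD1 (-0.88), TRIB2 (-0.53) and CYP1A1 (-0.93) are described above. THBS1, the matricellular protein thrombospondin-1 and a TGF-beta target, had normalized counts of 8796, 7135 and 9223 in DMSO, 4995, 5014 and 5256 with Met, 14110.5, 15072 and 14476 with FK and 5776, 6034 and 5568 with Met+FK. Metformin lowered THBS1 and FK866 alone raised it, and the Met+FK libraries lay far nearer to Met than to FK, above all Met and under all DMSO libraries (count-scale departure -0.65, adjusted p = 0.014, limma; log2 departure -0.62 ± 0.12). NPTX1, a secreted pentraxin first described in neurons, had 3489.8, 2949.9 and 3389 in DMSO, 2708, 2698 and 3039.6 with Met, 5871, 7163 and 6193 with FK and 3253, 3691 and 3196 with Met+FK. It rose with FK866 alone (log2 change 0.97, adjusted p = 6.6e-05, limma), and in the combination its libraries overlapped those of DMSO (count-scale departure -0.65, adjusted p = 0.0473). All 7 count-scale calls held without FK replicate 1 or 2 and all 7 missed the adjusted threshold without Met replicate 1 or 2 or Met+FK replicate 3. UPP1 and THBS1 held in 8 of the 12 fits without 1 library, with departures from 0.42 to 0.47 and from -0.70 to -0.57. NGFR also missed the threshold with the libraries scaled to the same total (0.55, adjusted p = 0.0607, limma).

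Gene lists are described by how many members lay above or below at an unadjusted p under 0.05, to be read against the share among all genes in the same fit. That share was 15.8% above and 14.8% below on the deposited values, 11.9% and 5.89% with the trend removed, 10.05% and 19.03% with the libraries scaled to the same total, and 9.85% and 9.09% without FK replicate 2. Among 20 inflammatory mediators, which are cytokines, chemokines and NF-kB response genes, 1 lay above and 11 lay below (55.0%), with a median departure of -0.41 against 0.0162 for all genes. With the trend removed, 0 of 19 lay above and 6 below (limma), and PTGS2 and IL11 had an adjusted p under 0.05. Without FK replicate 2, 0 lay above and 9 below. The list had a median GC content of 46.2%.

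Promoters of 4 of these genes and of CHAC1 are shown because the letters of a known response site stand in them. They run from 250 bases before to 50 after the start site in RefSeq (GRCh38.p14), 5′ to 3′ on the gene's strand, with the motif in capitals. CXCL8 (chr4:73740319-73740618, plus strand) and IL11 (chr19:55370414-55370713, minus strand) show an AP-1 site, CXCL1 (chr4:73869143-73869442, plus) and BIRC3 (chr11:102317234-102317533, plus) NF-kB sites, and CHAC1 (chr15:40953221-40953520, plus), described with the stress response genes, an amino acid response element.
CXCL8: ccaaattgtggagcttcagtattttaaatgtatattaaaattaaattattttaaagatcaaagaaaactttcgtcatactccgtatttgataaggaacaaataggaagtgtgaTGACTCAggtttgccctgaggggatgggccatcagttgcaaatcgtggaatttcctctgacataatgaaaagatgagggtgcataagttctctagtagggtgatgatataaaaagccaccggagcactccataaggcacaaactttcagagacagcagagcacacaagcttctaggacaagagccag
IL11: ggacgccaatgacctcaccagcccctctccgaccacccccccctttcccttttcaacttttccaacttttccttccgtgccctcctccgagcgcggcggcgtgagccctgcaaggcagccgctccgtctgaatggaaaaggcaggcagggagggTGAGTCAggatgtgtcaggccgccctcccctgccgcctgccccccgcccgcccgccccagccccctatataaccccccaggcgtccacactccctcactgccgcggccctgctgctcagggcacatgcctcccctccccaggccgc
CXCL1: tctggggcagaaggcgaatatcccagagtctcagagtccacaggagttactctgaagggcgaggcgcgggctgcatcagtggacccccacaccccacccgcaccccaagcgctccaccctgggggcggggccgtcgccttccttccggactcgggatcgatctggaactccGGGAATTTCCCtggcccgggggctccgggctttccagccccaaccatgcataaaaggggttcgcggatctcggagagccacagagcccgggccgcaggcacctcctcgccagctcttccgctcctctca
BIRC3: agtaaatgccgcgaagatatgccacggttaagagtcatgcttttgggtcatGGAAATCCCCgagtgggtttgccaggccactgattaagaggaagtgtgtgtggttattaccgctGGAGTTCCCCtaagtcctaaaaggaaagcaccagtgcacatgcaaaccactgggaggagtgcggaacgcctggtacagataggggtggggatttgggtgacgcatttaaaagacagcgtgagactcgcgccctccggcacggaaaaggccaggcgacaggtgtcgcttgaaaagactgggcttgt
CHAC1: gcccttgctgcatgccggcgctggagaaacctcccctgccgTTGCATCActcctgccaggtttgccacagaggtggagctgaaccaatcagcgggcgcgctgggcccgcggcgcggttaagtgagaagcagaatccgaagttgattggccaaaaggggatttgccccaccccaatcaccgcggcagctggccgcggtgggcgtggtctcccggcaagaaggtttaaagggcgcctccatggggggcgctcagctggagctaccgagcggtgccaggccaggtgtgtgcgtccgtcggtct

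Both strands were searched for AP-1 (TGANTCA), the E-box (CACGTG), the cyclic AMP response element (TGACGTCA), the amino acid response element (TGATGNAA), the NF-kB site and the CArG box in 7700 tested genes with a single start in the table. The NF-kB site stood in 7 of the 12 inflammatory promoters in the table (58.3%), among them CXCL1, CXCL2, CXCL3, NFKBIA and TNFAIP3, against 13.04% of all promoters. AP-1 stood in 2 of the 12 (16.7%) against 4.40%. The list was chosen to hold NF-kB response genes, so its NF-kB share says nothing about the departure. Among genes at an unadjusted p under 0.05 (limma), the NF-kB site stood in 12.9% of promoters above and 10.7% below. With the trend removed, it stood in 2 of 25 promoters called above and 2 of 27 called below. The letters of no motif hold those of another, and the NF-kB site of CXCL1 matched on both strands. Among the genes called with the trend removed, the E-box stood in 7 of 25 promoters above (28%) and 0 of 27 below, against 10.3% of all. In the larger sets at an unadjusted p under 0.05 on the deposited values (limma), the E-box stood in 13.8% above and 10.3% below. The cyclic AMP response element stood in 3.64% of all promoters and the CArG box in 0.844%. A match describes the letters in this window only. Near matches to a motif were not counted, so letters without capitals, as in CXCL8 for the NF-kB site, do not show that a site is absent.

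CXCL8, which encodes the neutrophil chemokine interleukin-8, had normalized counts of 957, 1328 and 911 in DMSO, 1943, 1832 and 1602 with Met, 3456, 4800.3 and 2654 with FK and 3096, 3154 and 2724 with Met+FK. FK866 alone gave 3 libraries above all DMSO and Met libraries, and the Met+FK libraries overlapped the FK range at its lower end (departure -1.01 ± 0.25, adjusted p = 0.106, limma; -0.53 with the trend removed). IL11, a cytokine of the interleukin-6 family, had 113, 100.5 and 119 in DMSO, 90.9, 94.5 and 86.2 with Met, 227, 258 and 275 with FK and 103, 119 and 140.5 with Met+FK. FK866 alone raised it 2.28-fold (adjusted p = 0.000255, limma), and the Met+FK libraries overlapped DMSO (departure -0.78 ± 0.19, adjusted p = 0.106; -0.99 and 0.0256 with the trend removed). IL1B, the cytokine interleukin-1 beta, had 159, 203 and 199 in DMSO, 162, 194 and 203 with Met, 313, 379.5 and 358 with FK and 199, 280.0 and 217 with Met+FK, with 1 of 3 Met+FK libraries inside the DMSO range, all 3 under the FK libraries, and a departure of -0.60 ± 0.21 (adjusted p = 0.112).

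CXCL1, another neutrophil chemokine, had 632, 514 and 523 in DMSO, 503, 586 and 554 with Met, 863, 702 and 651 with FK and 533, 557 and 555 with Met+FK. Its Met+FK libraries lay within the Met range and under all FK libraries (departure -0.40 ± 0.16, adjusted p = 0.127, limma). BIRC3, an inhibitor of apoptosis and NF-kB target, had 1402, 2709 and 1356 in DMSO, 2627, 4167 and 2577 with Met, 2000.0, 4138 and 2344 with FK and 1889, 2772 and 2911 with Met+FK. Replicate 2 was the highest library of BIRC3 in DMSO, Met and FK, and all 4 groups overlapped (departure -0.93 ± 0.41, adjusted p = 0.144, limma; -0.39 with the trend removed). CXCL1, IL11, IL1B, CHAC1 and HBEGF fall outside the rule for named genes and were chosen after their values were seen.

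Epiregulin belongs to the EGF family, in which 2 of 13 ligands, receptors and regulators lay above and 6 below (46.2%), with a median of -0.27. The trend-removed counts were 2 above and 4 below, and the median was 0.01. AREG, the ligand amphiregulin, had normalized counts of 430.5, 481 and 499 in DMSO, 1415, 1267 and 1333 with Met, 879.7, 1113 and 847 with FK and 2014, 1838 and 1579.5 with Met+FK, so both drugs alone raised it and the combination was the highest group. Its departure of -0.57 ± 0.16 (adjusted p = 0.11, limma) stood beside a count-scale departure of -0.00363, so the Met+FK level was near the sum of the single changes. TGFA, the ligand transforming growth factor alpha, had 75, 79.8 and 85.9 in DMSO, 113, 111 and 122 with Met, 121, 173 and 123 with FK and 113, 133 and 136 with Met+FK, with Met+FK libraries that overlapped both single drugs (departure -0.63 ± 0.21, adjusted p = 0.111). HBEGF, the heparin-binding ligand, lay between 740.4 ± 13.9 in DMSO and 1011 ± 6.06 with Met+FK (mean ± SD, n = 3), and either drug alone reached nearly the level of both (departure -0.32 ± 0.10, adjusted p = 0.11, limma; adjusted p = 0.0426 with the trend removed). NRG2, a neuregulin that binds ERBB receptors, went the other way, with 581 ± 43.6 in DMSO, 347 ± 85.8 with Met, 354 ± 30 with FK and 329 ± 35 with Met+FK (departure 0.66 ± 0.21, adjusted p = 0.11, limma; 0.42 with the trend removed).

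Immediate early genes, which respond to growth signals within minutes to hours, went both ways, with 6 of 29 above and 3 below and a median of 0.08. Removing the trend gave 7 above and 7 below, and the median was -0.13. NR4A2, an orphan nuclear receptor, had 83.1, 85.7 and 127 in DMSO, 101, 119 and 143 with Met, 273, 487 and 356 with FK and 103, 193 and 192 with Met+FK. FK866 alone gave its 3 highest libraries, and the Met+FK libraries overlapped Met (departure -1.51 ± 0.36, adjusted p = 0.106, limma; -1.50 and 0.0471 with the trend removed). MYC, the growth-regulating transcription factor, had 6420.0, 5929 and 6205 in DMSO, 8601, 7742 and 7846 with Met, 6029, 5292 and 5513 with FK and 10711, 9907 and 10660.5 with Met+FK. FK866 alone gave MYC values at the lower end of the DMSO range or under it, whereas under metformin it gave the 3 highest libraries (departure 0.51 ± 0.10, adjusted p = 0.0809; 0.50 and 0.00922 with the trend removed). SRF, the serum response factor, was 2836 ± 92.4 in DMSO, 2434 ± 107 with Met, 2150.2 ± 135 with FK and 2597 ± 60.8 with Met+FK, a departure of 0.49 ± 0.10 (adjusted p = 0.0847, limma; 0.27 with the trend removed).

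YAP and TGF-beta targets also included both directions beside CCN1, with 6 of 20 above (30.0%) and 3 below and a median of 0.12. Removing the trend gave 8 above and 4 below. INHBA, the activin A subunit, had 147, 174 and 139 in DMSO, 116, 188 and 143 with Met, 264, 449 and 334 with FK and 123, 144 and 128 with Met+FK. FK866 alone gave its 3 highest libraries, and the Met+FK libraries lay at the lower end of the DMSO range or under it (departure -1.31 ± 0.27, adjusted p = 0.085, limma; -0.88 and 0.0471 with the trend removed). TGFBI, a TGF-beta-induced matrix protein, fell with metformin (log2 change -2.14) and was 61.3 ± 14.7 with Met and 66.2 ± 17.5 with Met+FK, while FK866 alone took it from 270.1 ± 27.5 to 168 ± 14.3 (departure 0.78 ± 0.28, adjusted p = 0.114).

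Integrated stress response targets lay below more often than above on the log2 scale, with 2 of 29 above and 10 below (34.5%). The median departure was -0.05 on the log2 scale and 0.09 of the gene's mean on the count scale. Removing the trend gave 1 above and 11 below, and ATF3, GDF15, CHAC1, DDIT4 and SLC7A11 had an adjusted p under 0.05. Without FK replicate 2 the counts were 1 above and 8 below. CHAC1, which breaks down glutathione, had normalized counts of 392, 349.8 and 302 in DMSO, 1663, 1875 and 1781 with Met, 561, 483 and 442 with FK and 1815, 1848 and 2201 with Met+FK. Metformin moved CHAC1 far more than FK866 did, and the Met+FK libraries overlapped the Met libraries (departure -0.37 ± 0.16, adjusted p = 0.146, limma; -0.64 and 0.0385 with the trend removed). The amino acid response element printed above stood in 1 of 15 promoters of this list, that of CHAC1, against 1.52% of all promoters.

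SLC7A11, the cystine importer and a target of both ATF4 and NRF2, had 2287, 2855 and 1819.9 in DMSO, 9412, 9714 and 7252 with Met, 4119.9, 6397 and 3949.9 with FK and 9342, 7938 and 7449.8 with Met+FK. Its Met+FK libraries overlapped the Met libraries, while FK866 alone raised it (departure -1.13 ± 0.26, adjusted p = 0.104, limma; -0.57 and 0.0326 with the trend removed). ASNS, asparagine synthetase, was 109 ± 21.8 in DMSO, 433 ± 48.2 with Met, 193 ± 29.5 with FK and 487 ± 41 with Met+FK (departure -0.66 ± 0.22, adjusted p = 0.111). DDIT4, an inhibitor of mTORC1 signalling, reached 10092 ± 774 with Met+FK from 8007 ± 541 with Met, under the product (11550.2) and over the sum (8982), with a departure of -0.20 ± 0.11 (adjusted p = 0.241, limma). PPP1R15A, also called GADD34, the phosphatase subunit that ends the response, had 1213, 1327 and 1508 in DMSO, 3060.3, 2697 and 3445 with Met, 1256, 1371 and 1301 with FK and 4545, 4185 and 4292 with Met+FK. FK866 alone left PPP1R15A within the DMSO range and under metformin gave its 3 highest libraries, so its departure was above 0 where that of ATF3 was below (departure 0.55 ± 0.14, adjusted p = 0.109, limma; 0.31 and 0.204 with the trend removed).

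Of 19 circadian clock genes, 4 lay above and 2 below, with a median of 0.05 that was -0.01 with all libraries scaled to the same total. With the trend removed 2 lay above and 0 below (limma). DBP, an output transcription factor of the clock, had 137, 129 and 117 in DMSO, 159, 165 and 189 with Met, 114, 105 and 99.9 with FK and 276, 243 and 274 with Met+FK. The Met+FK libraries of DBP were the 3 highest although FK866 alone gave the 3 lowest (departure 0.89 ± 0.17, adjusted p = 0.0803, limma; 0.60 and 0.0823 with the trend removed). NR1D1, the repressor REV-ERB alpha, had 458, 639 and 786 in DMSO, 656, 671 and 844 with Met, 439.8, 563 and 685 with FK and 1033, 1172 and 1223 with Met+FK, with its 3 highest libraries in Met+FK and a departure of 0.81 ± 0.26 (adjusted p = 0.11). TEF, a factor related to DBP, was 786 ± 80.4 in DMSO, 915 ± 39.4 with Met, 783 ± 59.4 with FK and 1191 ± 55.9 with Met+FK (departure 0.38 ± 0.13, adjusted p = 0.111, limma; 0.21 with the trend removed). PER1, a repressor of the core loop, rose with FK866 both without metformin (log2 change 0.50, adjusted p = 0.0259) and with it (0.79, 0.028), and its departure was 0.29 ± 0.18 (adjusted p = 0.29, limma; 0.05 with the trend removed). CLOCK, the positive arm of the loop, had a departure of -0.64 ± 0.27 that was -0.14 with the trend removed. An E-box stood in 4 of 10 clock promoters in the table, against 10.3% of all promoters. These were the promoters of BHLHE40, BHLHE41, CIART and PER1, and those of DBP, NR1D1, TEF and CLOCK were not among them.

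Genes of the translation apparatus often lay above additivity, each by a small amount. Of 78 cytosolic ribosomal protein genes, 48 lay above (61.5%) and 0 below, with a median departure of 0.27. The median log2 change with FK866 was -0.16 without metformin and 0.09 with it. With the trend removed the count was 45 above and 0 below, and without FK replicate 2 it was 33 above and 0 below. RPL28 had 14809, 14967 and 13388 in DMSO, 12997, 12767 and 13612 with Met, 13438, 10863 and 11834 with FK and 14239, 14161 and 15765 with Met+FK and a departure of 0.42 ± 0.11, RPL36 had one of 0.42 ± 0.13, and their adjusted p was 0.11 (limma). Once the trend was removed they were 0.27 and 0.16. The Met+FK libraries of RPL28 overlapped those of DMSO, and its lowest library was FK replicate 2. Among 23 small nucleolar RNA host genes, whose introns hold the RNAs that guide ribosomal RNA modification, 10 lay above (43.5%) and 0 below, with a median of 0.27, and with the trend removed 12 lay above and 0 below. SNHG3 had 14682, 11548 and 11140.5 in DMSO, 10797, 10169 and 10844 with Met, 10690.0, 8696 and 10942 with FK and 12840.3, 12304 and 13626 with Met+FK and a departure of 0.58 ± 0.15 (adjusted p = 0.108, limma; 0.62 and 0.0428 with the trend removed), with Met+FK libraries above all Met and FK libraries. SNHG7 and SNHG15 had departures of 0.59 ± 0.15 (0.31 with the trend removed) and 0.51 ± 0.14.

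Histone cluster genes had the highest median departure among the lists of more than 10 members. Of 61 tested, 40 lay above (65.6%) and 0 below, with a median of 0.46. They fell with metformin (median log2 change -1.50) and had a median change with FK866 of -0.51 without metformin and -0.03 with it. HIST1H2BF had 5287, 5413 and 4902 in DMSO, 1571, 1807 and 1862 with Met, 4173, 2908 and 3507 with FK and 1566, 1675 and 2247 with Met+FK. All 3 Met+FK libraries of HIST1H2BF lay under all FK libraries and overlapped those of Met (departure 0.63 ± 0.19, adjusted p = 0.11, limma). HIST1H4J and HIST1H3D had departures of 0.68 ± 0.21 and 0.60 ± 0.18, which were 0.40 and 0.36 with the trend removed. The median GC content of the histone genes was 58.2%, and 19 of 59 lay above and 0 below with the trend removed, while 23 lay above and 0 below without FK replicate 2. Many histone genes are near-identical copies, so that their counts are uncertain.

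**Figure D5:**
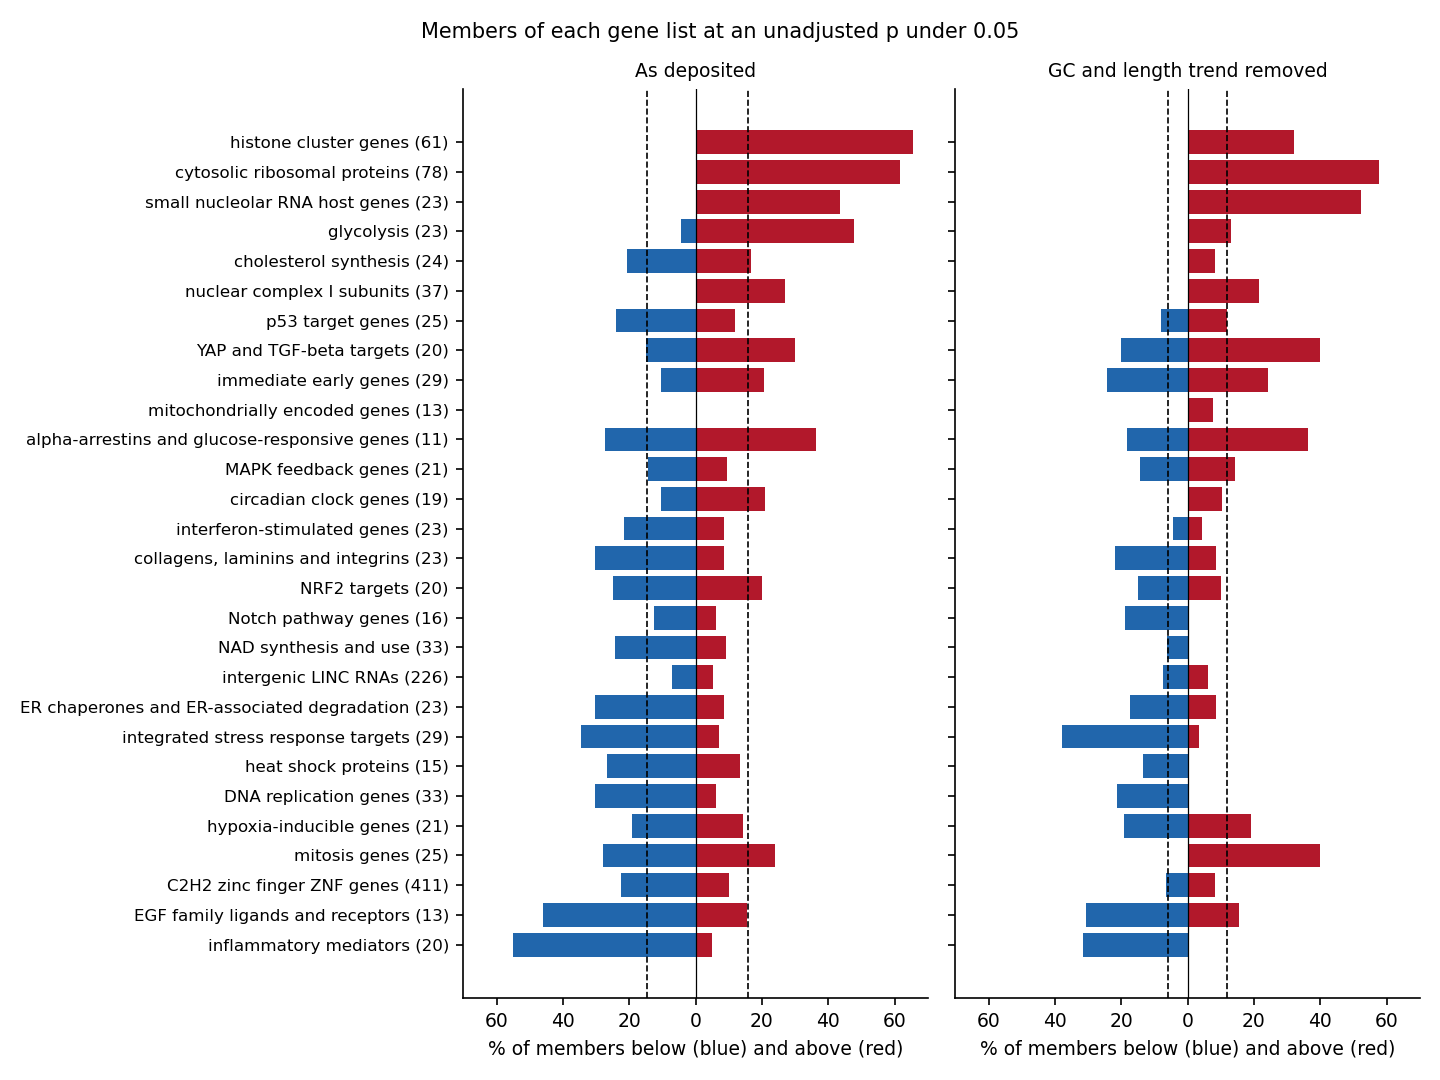
Share of each list's members (number tested on the deposited values in brackets) above (red) and below (blue) additivity at an unadjusted p under 0.05, from the deposited values (left) and with the GC and length trend removed (right), with the shares among all genes as dashed lines. From left to right, the share above goes from 61.5% to 57.7% for ribosomal protein genes and from 43.5% to 52.2% for small nucleolar RNA host genes. That of histone cluster genes drops from 65.6% to 32.2%.

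Genes of energy metabolism lay above more often than below on the deposited values. Of 37 nuclear complex I subunits, 10 lay above (27.0%) and 0 below, with a median of 0.17, and 8 lay above and 0 below with the trend removed. NDUFS7 and NDUFS8, subunits of the hydrophilic arm, had departures of 0.46 ± 0.13 and 0.42 ± 0.13, which were 0.14 and 0.14 with the trend removed. With the libraries scaled to the same total, 6 of the 37 lay above and 1 below, and without FK replicate 2 or 1 the count above was 5 or 20. Of 23 glycolysis genes, 11 lay above (47.8%) and 1 below, but 3 above and 0 below with the trend removed and 6 above and 0 below without FK replicate 2. ENO1, the glycolytic enzyme enolase 1, was 134584 ± 6835 in DMSO, 88546 ± 7256 with Met, 108769 ± 13823 with FK and 91832 ± 8702 with Met+FK (departure 0.37 ± 0.13, adjusted p = 0.115, limma; 0.18 with the trend removed). SLC2A1, the glucose transporter GLUT1, had 3699, 2904 and 3465 in DMSO, 4372, 3332 and 4186 with Met, 3422, 2685 and 3043 with FK and 5697, 4613 and 4929 with Met+FK. The 3 highest libraries of SLC2A1 were those of Met+FK (departure 0.50 ± 0.17, adjusted p = 0.112, limma; 0.37 with the trend removed). Of the 13 genes encoded by mitochondrial DNA, 0 lay above or below on the deposited values (limma), with departures from -0.37 to 0.26, and 1 lay above with the trend removed.

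Proliferation genes were counted as DNA replication and as mitosis genes. Of 33 DNA replication genes, 2 lay above and 10 below (30.3%), and 0 above and 7 below with the trend removed. The median departure of this list was -0.11 on the log2 scale and 0.07 of the gene's mean on the count scale. CCNE2, a cyclin of the G1 to S transition, had 345, 534 and 299.7 in DMSO, 276, 349.6 and 237 with Met, 427, 699.8 and 419 with FK and 167, 167 and 201 with Met+FK, and its Met+FK libraries were the 3 lowest (departure -1.06 ± 0.31, adjusted p = 0.11, limma; -0.60 with the trend removed). MCM10, a replication initiation factor, had 2374, 2643 and 2389.7 in DMSO, 1009, 1211 and 1019.6 with Met, 2411, 2536 and 2449.6 with FK and 717, 846 and 805 with Met+FK. Metformin lowered MCM10, the change with FK866 alone had an adjusted p of 0.997 (limma), and the Met+FK libraries were the 3 lowest (departure -0.45 ± 0.13, adjusted p = 0.11; -0.24 with the trend removed). POLA1, the catalytic subunit of DNA polymerase alpha, had a departure of -0.46 ± 0.15 (-0.20 with the trend removed), and all 3 of its Met+FK libraries lay under all Met libraries.

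Of 25 mitosis genes, 6 lay above and 7 below on the deposited values, while 10 lay above and 0 below with the trend removed. PLK1, a kinase of mitotic entry, had 7382, 6804 and 6886 in DMSO, 2869, 2597 and 3231 with Met, 6116, 4860.5 and 5762 with FK and 3189, 3024 and 3520.0 with Met+FK, with the Met+FK libraries overlapping Met (departure 0.50 ± 0.14, adjusted p = 0.11, limma; 0.28 with the trend removed). CDC20, an activator of the anaphase-promoting complex, had a departure of 0.54 ± 0.14 (0.31 with the trend removed). TOP2A and ANLN, with GC contents of 38.9% and 39.8%, had departures of -0.51 ± 0.24 and -0.50 ± 0.22 that became -0.08 and -0.12 with the trend removed. Without FK replicate 2, 5 of the 25 lay above and 0 below.

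Alpha-arrestins and other glucose-responsive genes included 4 of 11 above and 3 below. ARRDC3, an adaptor for receptor ubiquitination, had 1968, 2511 and 1809 in DMSO, 4948, 4942 and 3718 with Met, 5213, 7883 and 5171 with FK and 6365, 6764 and 5501 with Met+FK. Each drug alone raised ARRDC3, and the combination overlapped FK (departure -1.06 ± 0.23, adjusted p = 0.0976, limma; -0.60 and 0.0049 with the trend removed). ARRDC4 had a departure of -0.63 ± 0.22 (-0.41 with the trend removed), and TXNIP, an inhibitor of thioredoxin and of glucose uptake, one of -0.40 ± 0.13 (adjusted p = 0.111; -0.24 with the trend removed), with a log2 change with FK866 of 1.01 alone and 0.61 under metformin. MLXIP, a glucose-sensing transcription factor also called MondoA, had a departure of 0.44 ± 0.13 (adjusted p = 0.0309 with the trend removed, limma).

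Among 33 genes of NAD synthesis and use, 3 lay above and 8 below (24.2%), and 0 above and 2 below with the trend removed. NAMPT, the target of FK866, had 1830.3, 2102 and 1615 in DMSO, 3159.6, 3392 and 2432 with Met, 2307, 3662 and 2351 with FK and 3198, 3382 and 2864 with Met+FK, with overlap among Met, FK and Met+FK. Its departure of -0.48 ± 0.23 (adjusted p = 0.175, limma) turned to 0.06 with the trend removed, and its GC content is 34.4%. PARP14, an ADP-ribosyltransferase that uses NAD+, had -0.68 ± 0.18, KYNU of the kynurenine route -0.65 ± 0.22, and SIRT6, an NAD+-dependent deacylase, 0.40 ± 0.14. Once the trend was removed these were -0.40 for PARP14, -0.08 for KYNU and 0.10 for SIRT6.

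Further lists are given by their counts on the deposited values and, for comparison, with the trend removed. Of 23 chaperones and degradation factors of the endoplasmic reticulum, 2 lay above and 7 below (30.4%; SEL1L -0.63 ± 0.17), against 2 and 4 (17.4%) with the trend removed (SEL1L -0.20). Of 25 p53 target genes, 3 lay above and 6 below, against 3 and 2, with TNFRSF10B, the death receptor DR5, at 0.31 ± 0.09 and RRM2B, a ribonucleotide reductase subunit, at -0.76 ± 0.30 (-0.23 with the trend removed). Of 20 NRF2 targets, 4 lay above and 5 below, against 2 and 3 (GCLC -0.53 ± 0.16). Cholesterol synthesis had 4 above and 5 below of 24, against 2 and 0 (IDI1 -0.49 ± 0.13 and, with the trend removed, -0.11), and hypoxia-inducible genes 3 and 4 of 21, against 4 and 4 (19.05% below in both fits), with VEGFA at -0.26 ± 0.11 (adjusted p = 0.0493 with the trend removed, limma).

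Heat shock proteins had 2 above and 4 below of 15, against 0 and 2 with the trend removed (HSP90AA1 -0.70 ± 0.26 and -0.43), and Notch pathway genes 1 and 2 of 16 (12.5% below), against 0 and 3 (18.75%). Collagens, laminins and integrins had 2 above and 7 below of 23 (30.4%), against 2 and 5 (21.7%), so that their share below stayed over that of all genes in both fits. COL1A1, a fibrillar collagen chain, had -0.79 ± 0.27, and ITGA2, a collagen-binding integrin chain, -0.75 ± 0.19 (-0.34 with the trend removed). Interferon-stimulated genes had 2 above and 5 below of 23, against 1 and 1 (IFIT3 -0.61 ± 0.16), and MAPK feedback genes 2 and 3 of 21, against 3 and 3 (DUSP5 0.45 ± 0.11 and SPRED1 -0.65 ± 0.17, which were 0.26 and -0.12 with the trend removed). Of 411 C2H2 zinc finger genes, with a median GC content of 43.2%, 41 lay above and 93 below (22.6%), against 34 and 27 of 410 with the trend removed (ZNF860 -0.995 ± 0.22 and ZNF581 0.67 ± 0.15, which were -0.67 and 0.39). Of 226 intergenic LINC RNAs, 12 lay above and 16 below (7.08%), under the share among all genes. Without FK replicate 2, the counts below were 3 for the endoplasmic reticulum list (13.04%), 2 for the interferon-stimulated genes (8.70%), 2 for the heat shock proteins (13.3%) and 53 for the zinc finger genes (12.9%), where 9.09% of all genes lay below.

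Some responses to FK866 were additive within the spread. HES1, a Notch-responsive repressor, had 1214, 1172 and 1361 in DMSO, 1074, 1208 and 1237 with Met, 1908, 1936 and 1971 with FK and 1679, 1817 and 1889 with Met+FK. FK866 raised HES1 without metformin (log2 change 0.64, adjusted p = 0.000783, limma) and with it (0.61, adjusted p = 0.0139), and its departure of -0.02 ± 0.12 was smaller than its standard error. A p-value over the threshold does not show that the effects were equal.

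Several genes changed with FK866 under metformin without a change with FK866 alone that passed the test. ADM, the vasodilator peptide adrenomedullin, had 682, 667 and 664 in DMSO, 520.5, 451 and 481 with Met, 704, 739 and 746 with FK and 942, 719 and 700.5 with Met+FK (log2 change with FK866 under metformin 0.69, adjusted p = 0.0223, limma; departure 0.57 ± 0.15, adjusted p = 0.11). IER3, a stress-inducible regulator of survival, had 612, 520.2 and 578 in DMSO, 440.0, 412 and 484 with Met, 762, 609 and 705 with FK and 666, 680.4 and 747 with Met+FK, with a change under metformin of 0.65 (adjusted p = 0.028, limma) and a departure of 0.37 ± 0.15 (adjusted p = 0.125). SERTAD4 had 220.4, 204 and 249.6 in DMSO, 118, 125 and 119 with Met, 189, 203 and 205 with FK and 57.5, 75.8 and 51.7 with Met+FK, and its 3 Met+FK libraries lay under all others. The change of SERTAD4 with FK866 was -0.17 without metformin and -0.97 with it (adjusted p = 0.0185, limma), and its departure was -0.80 ± 0.20 (adjusted p = 0.107). With the trend removed the departures were 0.36 for ADM, 0.13 for IER3 and -0.40 for SERTAD4. The 3 departures missed the adjusted threshold by limma and edgeR, and by DESeq2 those of ADM (adjusted p = 0.029) and SERTAD4 (0.0279) passed it and that of IER3 (0.0967) did not.

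Among the largest departures of genes with a mean of at least 100 and the same sign in each set of same-numbered libraries were several that no list held. Above additivity, ROBO4, a guidance receptor, had 204, 175 and 205 in DMSO, 300.0, 197 and 319.6 with Met, 107, 57.5 and 116 with FK and 341, 233 and 281 with Met+FK, with the 3 FK libraries under all others (departure 1.19 ± 0.34, adjusted p = 0.11, limma). EFNA3, an ephrin ligand, had a departure of 0.93 ± 0.21, the keratin gene KRT80 one of 0.81 ± 0.20 (adjusted p = 0.0385 with the trend removed), the GTPase gene RAC3 one of 0.77 ± 0.16 (0.46 with the trend removed) and MYCL, a MYC relative, one of 0.74 ± 0.20. KRT80 was 3589 ± 179 in DMSO, 1932 ± 293 with Met, 1990.4 ± 388 with FK and 1852 ± 287 with Met+FK, so that either drug alone gave the level seen with both. Below additivity, FAM111B, a protease gene, had 630.1, 1175 and 559 in DMSO, 325, 479 and 307 with Met, 878, 1277 and 840.3 with FK and 168, 154 and 259.5 with Met+FK, with its 3 lowest libraries in Met+FK (departure -1.33 ± 0.38, adjusted p = 0.11, limma), and ESCO2, a cohesin acetyltransferase, had a departure of -1.08 ± 0.32 (-0.64 with the trend removed). NEAT1, the nuclear paraspeckle RNA, had 2685, 2555 and 3128 in DMSO, 12080.1, 10622 and 11169 with Met, 6468, 6446 and 6502 with FK and 21333, 10909.5 and 7200.0 with Met+FK. The 3 Met+FK libraries of NEAT1 spanned a wider range than the 9 others together, and its departure of -1.14 ± 0.35 had an adjusted p of 0.11 (limma; -0.74 with the trend removed).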

How the data were processed

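Total RNA of KP4 cells was depleted of ribosomal RNA and sequenced as read pairs in 12 libraries, 3 per treatment. Adapter trimming (cutadapt), alignment to hg38 (STAR), counting of pairs per gene (featureCounts) and division by DESeq2 size factors were done by the authors. Which annotation and which strand setting they counted with is not given in the sources used here, so values of overlapping and antisense genes and of near-identical copies are uncertain. The deposited values are a signal that is never negative, gene counts over a size factor per library (0.867 to 1.21). In every library 100% of the values came out as whole reads within 0.01, so depth was recovered (30667735 to 41052203 read pairs per library, median 34767231). Of 36601 genes, 9803 had no reads.

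The departure and all changes were tested with limma-trend (limma 3.58.1, R 4.3.3) with a pseudocount of 1 on the log2 scale, all 12 libraries and 4 treatment means in 1 fit, and Benjamini-Hochberg adjustment over the 15376 genes that averaged 10 or more. The pseudocount understates changes of low genes. For the count scale, values were divided by the gene's mean and fitted the same way. The change with FK alone and the departure share the FK and DMSO libraries and are given side by side only. GC content and transcript length came from GENCODE 44 (99.7% of the genes tested). A joint loess trend on both was removed from each library's deviation from the gene's mean over the 12 libraries. On the recovered read pairs, edgeR 4.0.16 called 1 gene above and 9 below, and DESeq2 1.42.0 called 263 above and 432 below. The scripts were tested on simulated data without a GC trend, a replicate effect or an effect of either drug alone. That test therefore does not show how the fits behave where these are present.

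The gene lists and the genes followed were chosen with earlier results of these data known. Genes were named if they had an adjusted p under 0.05, were among the 15 largest departures each way with a mean of at least 100, an unadjusted p under 0.05 and the same sign in each set of same-numbered libraries, were among the 3 largest each way of a list, were named in the study or changed over 1.5-fold between Met+FK and Met at an adjusted p under 0.05, or had 1 of the 5 smallest adjusted p-values each way on the count scale. Some genes that the rule names are not reported here. Alternatives were other pseudocounts, filters, scalings and tools, the replicate number as a block, and each library left out.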

Additional observations from a re-analysis of the deposited data

Results flagged for a closer look

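The departure is itself a test of the difference between the effect of FK866 with and without metformin, and 9 genes passed it on the log2 scale (limma with Benjamini-Hochberg adjustment). Below additivity were AC116158.3 (-2.004), EREG (-1.42), PTGS2 (-1.29), CYP1B1 (-1.27), SLC5A3 (-1.07), PTCHD1 (-1.05), TRIB2 (-0.74) and ATF3 (-0.67), and above it was CCN1 (0.81). The direction was the same in each of the 3 sets of same-numbered libraries for all 9. The departure that chose these genes is the mean over the same 3 sets, so the shared direction is no separate support.

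On the count scale, where the reference is the sum of the single-drug changes, 7 genes passed the same test. The departures divided by the gene's mean were 0.44 for UPP1 and 0.59 for NGFR above, and -0.93 for CYP1A1, -0.88 for PTCHD1, -0.65 for NPTX1, -0.65 for THBS1 and -0.53 for TRIB2 below. PTCHD1 and TRIB2 passed on both scales.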

How the results depend on the processing

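The counts of called genes (1 above and 8 below on the log2 scale) stayed within 1.5 times with pseudocounts of 0.1 and 10, at least 10 counts in every library, TMM, libraries scaled to the same total and edgeR. With all genes of any value above 0, limma called 0 above and 1 below (2708 and 2624 at an unadjusted p under 0.05), with more genes in the adjustment. The calls moved to 45 above and 47 below with the GC and length trend removed, and to 263 and 432 with DESeq2. Without single libraries they ranged from 0 to 980 above and from 0 to 865 below. On the count scale (2 above and 5 below), the same total gave 1 above, and leaving out single libraries gave from 0 to 1155 above and from 0 to 789 below. The cause of these changes was not tested.

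The replicate number as a block raised the counts to 2380 above and 2534 below on the log2 scale, to 2538 and 2200 on the count scale, to 737 and 331 with the GC and length trend removed as well, and to 1864 and 2718 with edgeR, the last chosen after seeing the data. The labels do not say whether a number marks a shared culture, so the pairing was not established. Of 18 correlations between same-numbered libraries of different treatments, 13 were over 0.1 (0.0129 to 0.420). Of 12 libraries, 11 were closest to their own number, and replicate 2 had the lowest GC slope in each treatment. All 9 calls on the log2 scale and all 7 on the count scale remained with the block.

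Of the 92 genes followed across the fits, 2 changed sign. NAMPT, at -0.48, was at 0.060 with the GC and length trend removed, with and without the block, and HES1, at -0.02, ranged from -0.085 to 0.025 without single libraries. The other genes followed kept their direction in the fits run. These genes were chosen with results of the same libraries known, so the kept direction is no separate support. PTPRC and CD68, named with the markers, were not followed across the fits. Of the 9 calls, 8 passed with the trend removed, 9 with edgeR and 8 with DESeq2, which gave AC116158.3 no adjusted p. Depth limits the low genes most, such as AC116158.3 with a mean under 40 in each treatment, and 3 libraries per treatment set the precision of the rest.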
